A study of Mus musculus with 6 samples.

Results

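The miR-10, miR-99, miR-100 and miR-125 families are small RNAs of about the same length that guide Argonaute proteins to matching sites in messenger RNAs. Pairing rests mainly on the seed, bases 2 to 8 of the mature strand, so miRNAs with the same seed share many predicted targets. The members were taken by name: every deposited row called miR-10a, miR-10b, miR-99a, miR-99b, miR-100, miR-125a or miR-125b, of either arm and with any isoform suffix. This gave 10 rows, which made 9 features once rows of the same name and sequence were summed, out of 756 features in 823 rows. The 9 features hold 8 distinct sequences.

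The series has 6 small RNA libraries whose sample labels name Mes23.5, a hybrid line of neuroblastoma and embryonic midbrain cells with dopaminergic properties. All 6 were labelled as stimulated with the bacterial lipopolysaccharide LPS for 24 h. In 3 libraries (SIX2_EV) the cells had received extracellular vesicles of microglia overexpressing the transcription factor SIX2, and in 3 (control_EV) vesicles of control microglia. The growth protocol in the labels names the microglial line BV2 instead, so the cells are called here only what the sample labels call them. Whether each library had a culture of its own is not stated, so p-values reflect how these libraries scatter, and that scatter may be technical only.

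miR-10a and miR-10b lie inside the Hox gene clusters and are known for expression along the body axis. miR-99a, miR-99b and miR-100 are known as regulators of mTOR and insulin-like growth factor signalling. miR-125a and miR-125b are the vertebrate relatives of worm lin-4, and they are known in blood cell, neuronal and inflammatory settings. In mammals the miR-99, miR-100 and miR-125 genes, but not those of miR-10, are joined with let-7 in 3 genomic clusters. Each holds a miR-99 or miR-100, a let-7 and a miR-125 gene.

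The deposited sequences are shown first, because 2 of the names stand on letters that differ from their annotation. Capitals mark the seed, bases 2 to 8, and each is written 5′ to 3′ as deposited.
miR-10a-5p: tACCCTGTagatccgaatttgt
miR-10b-5p: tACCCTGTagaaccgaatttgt
miR-99a-5p: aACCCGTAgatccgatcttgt
miR-100-5p: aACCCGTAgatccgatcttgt
miR-99b-5p: cACCCGTAgaaccgaccttgcg
miR-125a-5p: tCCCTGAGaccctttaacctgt
miR-125b-5p: tCCCGGAGaccctaacttgtga
miR-125b-1-3p: aCGGGTTAggctcttgggagct
miR-125b-2-3p: aCAAGTCAggttcttgggacct
The mouse sequences annotated by RefSeq (GRCm38.p6) for the names concerned are these, with the same capitals.
miR-99a-5p in RefSeq: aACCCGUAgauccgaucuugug
miR-100-5p in RefSeq: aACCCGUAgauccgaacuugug
miR-125b-5p in RefSeq: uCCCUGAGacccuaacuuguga

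The rows named miR-99a-5p and miR-100-5p carried the same 21 bases. Annotated mouse miR-99a-5p and miR-100-5p differ at 1 of 22 bases, U16A, counted from 1 at the 5′ end (miR-99a has U and miR-100 has A). Against the annotated miR-100-5p the deposited sequence carries A16T, so at the distinguishing base it is the miR-99a sequence. It occurs in the GENCODE M21 transcripts of 1 gene, Mir99a, on the same strand. The reads of this sequence were divided evenly over both names in every library, and the level printed for miR-100-5p therefore holds no reads that can be told from miR-99a-5p. A row with the annotated base of miR-100 was not analysed here.

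The sequence named miR-125b-5p carries T5G against its annotation, counted from the 5′ end, which lies within the seed. Its seed, CCCGGAG, occurs in 0 annotated mouse mature miRNAs, while the annotated seed, CCCTGAG, is shared by 5, among them miR-125a-5p, miR-125b-5p and miR-351-5p. The deposited 22 bases occur in the transcripts of 0 genes of GENCODE M21. A row with the annotated sequence of miR-125b-5p was not analysed here, and whether the substitution comes from the cells, the sequencing or the collapsing of reads by the authors was not tested. Of 384 features with a mature miRNA name and a mouse hairpin, 49 were named with a substitution. Of these, 9 had a single one within the seed, and 6 of the 9 matched no annotated mouse miRNA, miR-125b-5p among them.

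The other members fitted mouse annotation without a substitution. miR-10a-5p and miR-10b-5p lacked the last base of the annotated strand and miR-125a-5p the last 2. miR-10b-5p is deposited as an isoform of the rat entry shifted at both ends, but its 5′ end is that of the mouse entry, so its seed is the mouse seed. miR-99b-5p and both miR-125b 3p arms equalled the annotated mouse sequences. miR-125b-2-3p is named with C11T against rat miR-125b-2-3p, so it carries the mouse and not the rat base.

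In GENCODE M21 (GRCm38), Mir10b lies at chr2:74726070-74726137 in introns of Hoxd3 and Hoxd4, and Mir10a at chr11:96317165-96317274 between genes, 992 bases from Hoxb4. Mir99a (chr16:77598936-77599000) and Mir125b-2 (chr16:77646273-77646343) lie in introns of the non-coding host Mir99ahg. Mir100 (chr9:41531425-41531504) and Mir125b-1 (chr9:41581926-41582002) lie in introns of the non-coding 3110039I08Rik. Mir99b (chr17:17830188-17830257) lies in an intron of Spaca6, and Mir125a (chr17:17830812-17830879) overlaps a Spaca6 exon, so fragments of that transcript cannot be told from miR-125a-5p by sequence. On the same strand, Mir125b-1 also overlaps an exon of Gm28119, whose transcript holds the miR-125b-1-3p sequence too, and Mir125b-2 one of C130023A14Rik. In the deposited coordinates, whose build is not named, 82 bases separate the hairpins of miR-99b and let-7e and 348 those of let-7e and miR-125a. On chromosome 16 the hairpins of miR-99a and let-7c-1 are 641 bases apart, and miR-125b-2 follows 46503 bases further on. On chromosome 9, 5197 bases lie between miR-100 and let-7a-2, and 45071 between let-7a-2 and miR-125b-1.

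Deposited reads per library ranged from 179621 to 421279. Features with a mature name and a mouse hairpin made up between 6.78% and 32.6% of them in SIX2_EV and between 31.5% and 70.8% in control_EV, so few reads stood behind the members in SIX2_EV. Replicate 3 of both groups differed from the rest in reads named mir-1285 (7.94% and 7.48%, against at most 0.447% in the others). Of 5 neuronal marker miRNAs 4 were listed: miR-124-3p was matched to no row, miR-9-5p and miR-218-5p had 7 and 21 reads in 1 library each, and the summed level was between 2054 and 2705 CPM in SIX2_EV and between 1867 and 3158 CPM in control_EV. Most of that sum was miR-7a-5p (1946 to 2605 and 1570.4 to 2888 CPM). miR-128-3p did not overlap between the groups (at least 76.1 CPM in SIX2_EV, all below the lowest control_EV value of 183 CPM). The same held for 22.9% of all features tested. It also held for the myeloid miR-142-5p (at most 3755 in SIX2_EV against at least 3787 CPM). The red blood cell miR-144-3p was likewise apart (at most 1522 against at least 1825 CPM), while the other markers overlapped. All 4 myeloid markers were listed (3178 to 5188 and 5133 to 5782 CPM summed), as were all 3 red blood cell markers (13887 to 21243 and 8683 to 30681 CPM) and both endothelial miR-126a arms (827 to 1128 and 829.9 to 2159.7 CPM). Of the neuronal markers, miR-7a-5p and miR-128-3p thus had reads in all 6 libraries and miR-124-3p in none, which does not settle the cell type. The part of other cell types in the members' levels was not tested. In bulk libraries, fewer cells of a type and less RNA per cell cannot be told apart.

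The members together had 273, 111 and 365 reads (SIX2_EV) and 320, 767 and 3699 reads (control_EV). Among mature-named reads the SIX2_EV shares were 1.09% (95% Wilson bounds 0.973 and 1.23), 0.703% (0.584 and 0.846) and 0.607% (0.548 and 0.672). The control_EV shares were 0.394% (0.354 and 0.440), 0.534% (0.498 and 0.573) and 1.24% (1.20 and 1.28). The highest share was in control_EV replicate 3 and the lowest in control_EV replicate 1, so the control group enclosed the SIX2_EV group. Means were 0.802% ± 0.258 and 0.723% ± 0.453 (SD, n = 3; exact two-sided permutation p 0.7). These intervals hold no more than the error of counting, and PCR copies of a molecule were not told apart. After adjustment over the 7 shares and ratios tested in these libraries the p was 0.817.

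Levels are given as CPM, counts scaled to library size with TMM, a method that sets the bulk of features equal between libraries. The TMM factors were wide, from 0.308 (SIX2_EV replicate 2) to 2.73 (control_EV replicate 3). All members have between 21 and 22 bases, so no length scaling was applied between them, and differences in capture between sequences were not tested. The reads of the miR-99a sequence were the most abundant, and its 2 names ranked 66th of 384 mature-named features in SIX2_EV and 78th in control_EV. These ranks rest on reads divided evenly over the names. The joined sequence had means of 1187 and 1081 CPM and was not ranked. miR-10b-5p ranked 75th and 80th. The other members were lower, between 149th and 200th in SIX2_EV and between 107th and 223rd in control_EV for miR-10a-5p, miR-99b-5p, miR-125a-5p and miR-125b-5p.

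**Figure D1:**
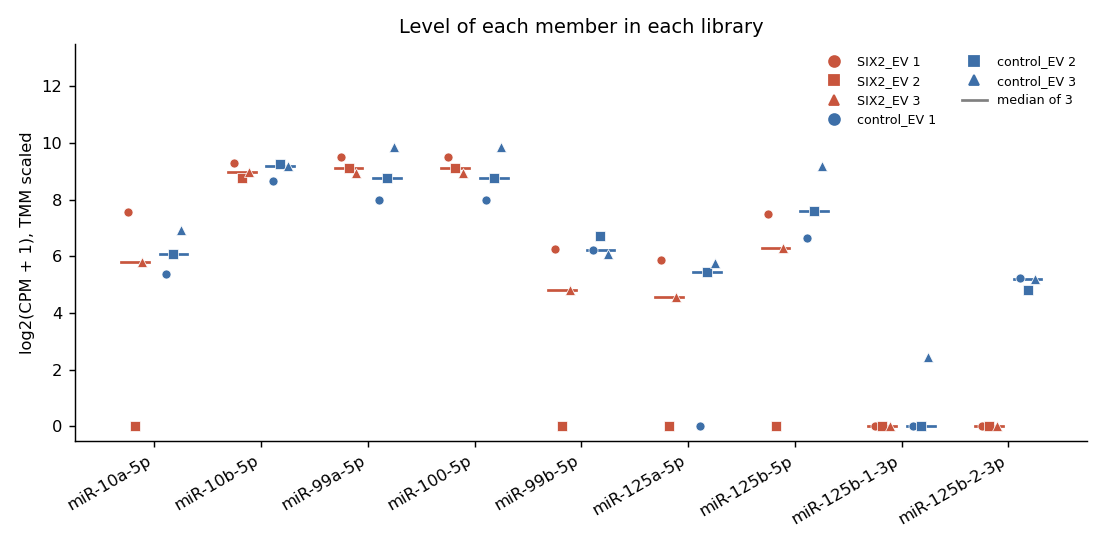
Level of each of the 9 members as log2(CPM + 1) in each library (SIX2_EV in red, control_EV in blue, symbols by replicate, bars at the median of 3). miR-10b-5p and the sequence shared by miR-99a-5p and miR-100-5p were listed in 6 libraries, while SIX2_EV replicate 2 was at 0 for every other member.

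miR-10b-5p, a Hoxd-cluster miRNA, had 66, 31 and 110 reads in the SIX2_EV libraries, which made levels of 628, 434 and 500.1 CPM. The control_EV libraries had 112, 244 and 659 reads, or 409, 611 and 589 CPM. The ranges overlapped almost wholly, and miR-10b-5p was the steadiest member in these libraries. Its means were 521 ± 98.5 and 536 ± 111 CPM (SD, n = 3), and the log2 fold change, SIX2_EV over control_EV throughout, was -0.04 (SE 0.34; edgeR adjusted p 0.982).

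miR-10a-5p, its Hoxb-cluster relative, differs from miR-10b-5p at 1 annotated base outside the seed, U12A. Its SIX2_EV reads were 20, 0 and 12 (190.2, 0 and 54.6 CPM), and its control_EV reads 11, 27 and 135 (40.2, 67.6 and 121 CPM). SIX2_EV replicates 1 and 2 were its highest and, as listed, its lowest library, so the spread within SIX2_EV exceeded the whole control range. Few listed values lie under 5 reads, so the 0 may stand for anything below 5 reads, worth 70.0 CPM in SIX2_EV replicate 2. The log2 fold change was 0.10 (SE 1.33, adjusted p 0.991 by edgeR), and without SIX2_EV replicate 1 it was -1.38 (adjusted p 0.862).

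Within the pair, miR-10b-5p took most reads in every library. In SIX2_EV it held 76.7% (Wilson bounds 66.8 and 84.4), 100% (88.97 and 100) and 90.2% (83.6 and 94.3). In control_EV it held 91.1% (84.7 and 94.9), 90.04% (85.9 and 93.1) and 83.0% (80.2 and 85.5). Such a share needs no scaling between libraries, and the groups overlapped, with means of 88.97% ± 11.7 and 88.03% ± 4.39 (SD, n = 3; exact two-sided permutation p 0.9, also after adjustment).

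The miR-99a sequence, joined over its 2 names, had 154, 80 and 215 reads in the SIX2_EV libraries, at levels of 1465, 1120.04 and 977 CPM. In the control_EV libraries it had 140, 348 and 2079 reads, at 512, 871 and 1859 CPM. The SIX2_EV libraries lay between control_EV replicates 1 and 2 on one side and control_EV replicate 3 on the other. With the 2 names joined, the log2 fold change was 0.12 (SE 0.51) and the adjusted p 0.952 by edgeR, and for each name alone it was 0.13 (SE 0.53, adjusted p 0.943). With control_EV replicate 3 left out, all SIX2_EV libraries lay above the other controls, and the log2 fold change of miR-99a-5p was 0.96 (SE 0.42, adjusted p 0.479 by edgeR). In replicates 1 and 2 of both groups it was 1.11 (SE 0.38, adjusted p 0.146). It turned negative without SIX2_EV replicate 1 (-0.05), control_EV replicate 1 (-0.20) or control_EV replicate 2 (-0.02), and with total counts (-1.56).

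miR-99b-5p, which comes from the Spaca6 locus, has the same seed and 4 annotated differences from miR-99a-5p. SIX2_EV reads numbered 8, 0 and 6 (76.1, 0 and 27.3 CPM) and control_EV reads 20, 42 and 74 (73.1, 105.1 and 66.2 CPM). SIX2_EV replicate 1 lay within the control range and SIX2_EV replicate 3 below it. SIX2_EV replicate 2 was listed at 0, but 5 reads there are worth 70.0 CPM, inside the control range. That library can thus not be placed against the controls. The log2 fold change was -1.21 (SE 1.17, adjusted p 0.747 by edgeR).

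Within the miR-99 and miR-100 names, miR-99b-5p had a mean read share of 2.55% ± 2.47 with SIX2_EV and 8.90% ± 4.81 with control_EV (SD, n = 3; exact two-sided permutation p 0.2, or 0.35 after Benjamini-Hochberg adjustment over 7 shares and ratios). The libraries ran from 0 to 4.94% in SIX2_EV, and were at 12.5%, 10.8% and 3.44% in control_EV. The 0 is SIX2_EV replicate 2, where miR-99b-5p was listed at 0 and may have had fewer than 5 reads. The overlap came from control_EV replicate 3, whose share lay inside the SIX2_EV range.

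miR-125b-5p, in its substituted form, had 19, 0 and 17 reads (181, 0 and 77.3 CPM) in the SIX2_EV libraries. Its 27, 78 and 647 reads in the control_EV libraries made 98.7, 195 and 579 CPM. SIX2_EV replicate 1 lay within the control range, and control_EV replicate 3 was the highest of the 6. The means were 86.0 ± 90.7 and 291 ± 254 CPM (SD, n = 3), and the log2 fold change was -1.74 (SE 1.33, adjusted p 0.638 by edgeR). Without control_EV replicate 3 it was -0.55 (SE 1.52, adjusted p 0.969).

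miR-125a-5p had reads of 6, 0 and 5 (SIX2_EV) and of 0, 17 and 60 (control_EV), too few for the filter on low counts. It was the only sequence among the members with the annotated miR-125 seed. Its means were 26.6 ± 28.7 and 32.1 ± 28.3 CPM (SD, n = 3), with 1 library of each group listed at 0. In the 4 libraries that held both miR-99b-5p and miR-125a-5p, which share a cluster, the log2 ratio of their reads was 0.42 and 0.26 in SIX2_EV and 1.30 and 0.30 in control_EV.

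miR-125b-5p took 76.0% and 77.3% of the miR-125 pair in SIX2_EV replicates 1 and 3 (Wilson intervals 56.6 to 88.5 and 56.6 to 89.9), and SIX2_EV replicate 2 had no reads of either. In control_EV it took 100% (87.5 to 100), 82.1% (73.2 to 88.5) and 91.5% (89.2 to 93.3). The groups did not overlap in this share, and the exact two-sided permutation p was 0.2 with 2 against 3 libraries, the smallest this split allows (0.35 after adjustment). The SIX2_EV shares rest on 25 and 22 reads, and their intervals include values found in control_EV. The 100% in control_EV replicate 1 rests on miR-125a-5p listed at 0, which may stand for fewer than 5 reads. miR-351-5p, which shares the annotated miR-125 seed but is no member, had reads of 0, 0 and 28 (SIX2_EV) and of 17, 22 and 63 (control_EV).

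The 3p arms, the strands that are usually discarded when Argonaute is loaded, were listed in control_EV alone. miR-125b-2-3p had 0 reads in each SIX2_EV library and 10, 11 and 40 in control_EV, and miR-125b-1-3p had 5 reads in control_EV replicate 3. The control mean of miR-125b-2-3p, 33.3 ± 5.00 CPM (SD, n = 3), stands beside 47.6, 70.0 and 22.7 CPM, which 5 reads are worth in the SIX2_EV libraries, so it lies above that level in replicate 3 alone. Few listed values lie under 5 reads, so 0 here may stand for anything below that, and no fold was drawn on this scale. On total counts the control mean was 2.32-fold the mean worth of 5 reads in SIX2_EV. On that scale the median log2 fold change of all features tested was -1.54, a larger shift, so this bound does not set miR-125b-2-3p apart. The 3p arms took 3.13%, 1.43% and 1.22% of the members' reads in control_EV (Wilson intervals 1.71 to 5.66, 0.803 to 2.55 and 0.910 to 1.62; exact two-sided permutation p 0.1, the smallest possible, or 0.35 after adjustment). At the lowest of these shares the SIX2_EV libraries would hold 3.32, 1.35 and 4.44 such reads, all below 5, and at the highest 8.53, 3.47 and 11.4, above 5 in replicates 1 and 3. Replicate 2 was thus too shallow to list the 3p arms at any control share, and the other SIX2_EV libraries were too shallow at the lowest share but not at the highest.

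**Figure D2:**
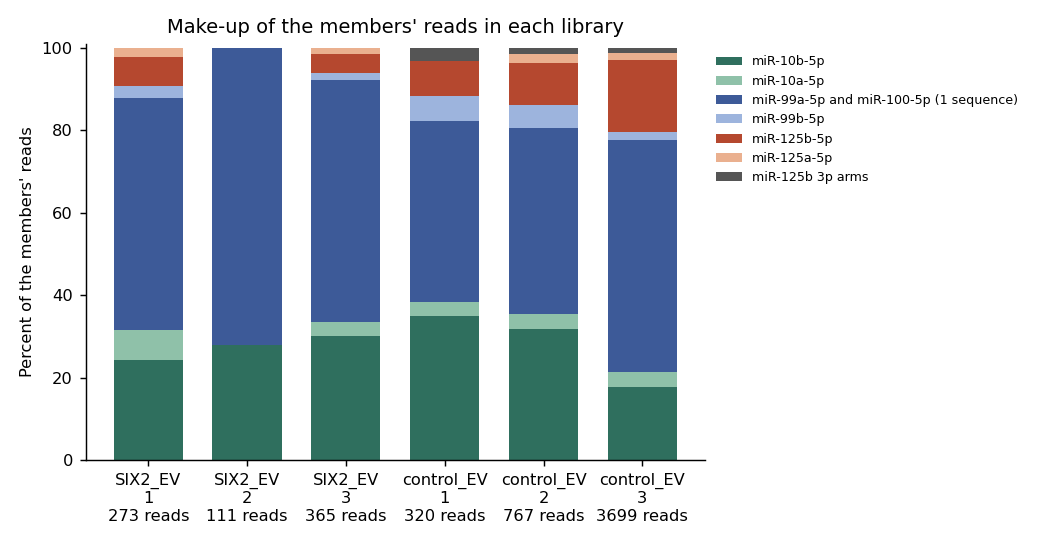
Percent of the members' reads taken by each member in each library (stacked bars that add up to 100%, with the members' read total under each). The shared miR-99a and miR-100 sequence and miR-10b-5p made up most of every bar, and the 3p arms appear in the control_EV libraries alone, at 3.13%, 1.43% and 1.22%.

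The first test asked whether any member differed between SIX2_EV and control_EV. Of 9 members, 6 passed the filter on low counts and were tested with 313 other features, and 0 of 6 passed an adjusted p of 0.05 by edgeR. The same held for 0% of all 319 features (0 features), so the members' count says nothing that sets them apart. A p above the threshold does not show that levels were equal. At an unadjusted p under 0.05 there were 0 of 6 members beside 12.2% of all features (39), and by DESeq2 0 of 6 at an adjusted p of 0.05 beside 6.27%. The groups overlapped in CPM for all 6 tested members, while they did not overlap for 22.9% of all features tested. Of the 6, 3 had a positive and 3 a negative log2 fold change, with a median of 0.03 beside -0.30 for all features.

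With total counts the median of all features moved from -0.30 to -1.54 and that of the members to -1.56, so both moved together. On that scale 6 of 6 members were negative, from -1.44 (miR-10a-5p) to -3.33 (miR-125b-5p), and the lowest adjusted p was 0.344 by edgeR. Relative to the median of all features, miR-10b-5p and the miR-99a sequence stood near 0 under total counts and miR-99b-5p and miR-125b-5p stood below it. With TMM and library sizes taken from mature-named features alone, a choice made after the data were seen, the log2 fold changes were 0.19 (SE 0.27) for miR-10b-5p, 0.38 (SE 0.45) for miR-99a-5p and -1.49 (SE 1.06) for miR-125b-5p, with an adjusted p of at least 0.819 by edgeR for each member.

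**Figure D3:**
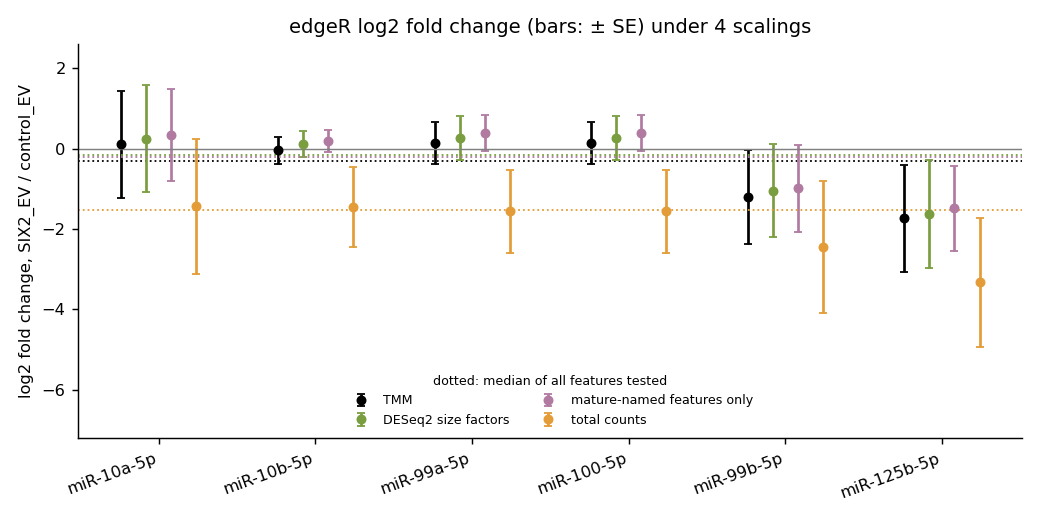
edgeR log2 fold change (SIX2_EV over control_EV) of the 6 tested members, with bars of ± 1 SE, under 4 scalings; dotted lines give the median of all features tested under each. Total counts (orange) shifted the members together with the median of all features, from -0.30 to -1.54, and miR-99b-5p and miR-125b-5p lay lowest under each scaling.

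Summed by name, the miR-10 group had a summed level of 602 ± 196 CPM with SIX2_EV and of 613 ± 142 CPM with control_EV (SD, n = 3). The miR-99 and miR-100 group stood at 1222 ± 282 and 1162 ± 689 CPM, and the miR-125 group at 113 ± 119 and 323 ± 277 CPM. Such sums were not tested. The log2 ratios of the group means were -0.02, 0.07 and -1.52, and without control_EV replicate 3 they were 0.09, 0.65 and -0.58. For miR-125, whose deposited members have different seeds, the ratio was -2.69 without SIX2_EV replicate 1, -0.93 without SIX2_EV replicate 2 and -3.06 with total counts. All 3 groups overlapped between SIX2_EV and control_EV.

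Control_EV replicate 3 held 3699 of the members' reads and set much of what the groups showed, so the members were also compared with miR-10b-5p of the same library, which removes scaling. This comparison was chosen after the values were seen and was not tested. The miR-99a sequence had 2.33, 2.58 and 1.95 reads per read of miR-10b-5p in SIX2_EV and 1.25, 1.43 and 3.15 in control_EV. miR-125b-5p had 0.288, 0 and 0.155 in SIX2_EV and 0.241, 0.320 and 0.982 in control_EV. These were highest in control_EV replicate 3, and the SIX2_EV ratios of the miR-99a sequence lay above those of control_EV replicates 1 and 2. miR-126a-3p, an endothelial miRNA, was also highest in that library. It had 0.697, 0.935 and 1.60 reads per read of miR-10b-5p in SIX2_EV and 1.29, 1.20 and 2.37 in control_EV. Within SIX2_EV it was highest in replicate 3, where the ratio of the miR-99a sequence was lowest. miR-99b-5p did not follow, and was lowest among the controls in that library (0.179, 0.172 and 0.112). miR-10a-5p was highest among the controls there (0.0982, 0.111 and 0.205), but SIX2_EV replicate 1 was higher still (0.303). The part of miR-126a-3p, and that of the library, in the members' levels was not tested.

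**Figure D4:**
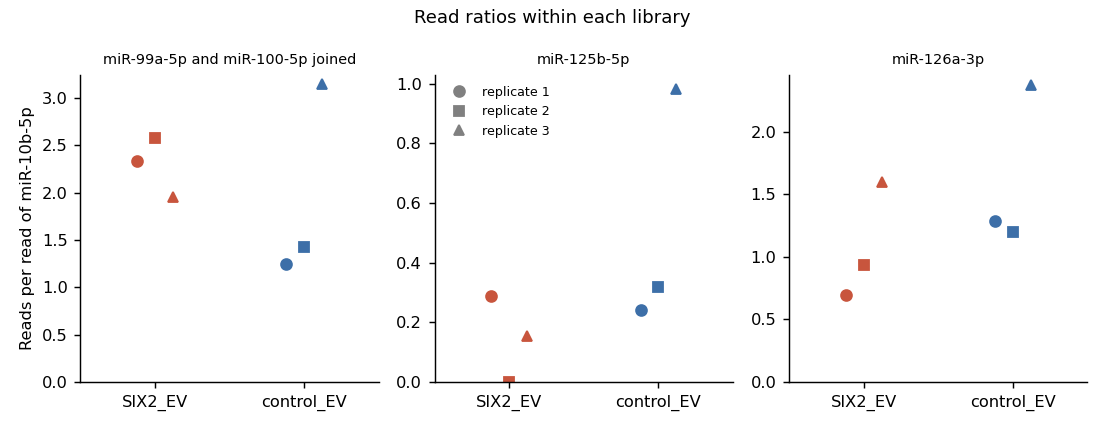
Reads of the sequence shared by miR-99a-5p and miR-100-5p, of miR-125b-5p and of miR-126a-3p per read of miR-10b-5p in the same library (y axis, from 0), by group and replicate. Control_EV replicate 3 (blue triangle) was highest in each panel, at 3.15, 0.982 and 2.37.

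Among 313 tested features outside the families, those with the most similar profile over the 6 libraries were named for miR-10b-5p, miR-99a-5p and miR-125b-5p, the most abundant names of the miR-10, miR-99 and miR-125 groups. Likeness was the root mean square difference of log2(CPM + 1) values centred on their own mean. For miR-10b-5p these were miR-221-3p (0.150), miR-532-5p (0.171) and miR-146b-5p (0.192), beside a median of 1.73 over all compared. For miR-99a-5p they were miR-126a-5p (0.346), miR-26b-5p (0.394) and let-7i-5p (0.412), beside a median of 1.80. For miR-125b-5p they were miR-411-5p (0.691), the cattle-named miR-2478 (0.729) and miR-151-3p (0.731), beside a median of 2.88. All 3 features near miR-125b-5p were, like it, listed at 0 in SIX2_EV replicate 2. The distance between miR-10b-5p and miR-99a-5p was 0.467, and that between miR-99a-5p and miR-125b-5p was 2.89. By this measure miR-126a-3p was 86th of 313 for miR-10b-5p (0.558), 46th for miR-99a-5p (0.667) and 62nd for miR-125b-5p (2.57). All these values describe 6 libraries and share their scaling.

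The let-7 genes of the same clusters are best known for promoting differentiation. Of 6 listed let-7a, let-7c and let-7e features, 3 have a hairpin in the clusters in the deposited coordinates, namely let-7a-5p, let-7c-5p and let-7e-5p. All 3 were tested and 0 passed by edgeR (lowest adjusted p 0.735, 0 at an unadjusted p under 0.05), with 2 positive values, 1 negative and a median of 0.37 beside -0.30 for all features. let-7a-5p, whose sequence also stands under a let-7c name and which is also placed at let-7a-1 outside the clusters, had 3412 ± 356 CPM with SIX2_EV and 3881 ± 249 CPM with control_EV, at a log2 fold change of -0.18 (SE 0.22). let-7c-5p had 496 ± 85.9 and 384 ± 53.1 CPM, at a log2 fold change of 0.37 (SE 0.34), while let-7e-5p had 64.5 ± 62.0 and 38.2 ± 16.3 CPM, with 0.71 (SE 1.42; SD, n = 3 for each). On chromosome 17, let-7e-5p was listed at 0 in SIX2_EV replicate 3, where its neighbours miR-99b-5p and miR-125a-5p had 6 and 5 reads, and it had 5 reads in SIX2_EV replicate 2, where both neighbours were at 0. At these counts the cluster's members could not be ranked against each other.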

How the data were processed

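The members and lists were chosen with earlier results of these data known. Per the labels' protocols, the authors used Trizol for total RNA and TruSeq for the small RNA libraries, and ACGT101-miR to discard adapter dimers, low-quality sequence, other RNA classes and repeats. No build, miRBase release or mapping parameter is stated in the sources used here. As deposited, the table gives estimated counts per sequence and locus, split over loci. It also holds the authors' normalized signal, used in 1 alternative. Rows of the same name and sequence were summed and rounded to whole reads. Of the 2410 values above 0, 31 lay under 5 and 169 at 5, so 0 means listed at 0. Replicates differed beyond counting error (chi-square over its degrees of freedom at least 58.1) and each library was counted once.

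All 756 features entered edgeR 4.0.16 (R 4.3.3; quasi-likelihood test, TMM, filterByExpr, no block, Benjamini-Hochberg adjustment at 0.05), which tested 319. DESeq2 1.42.0, limma 3.58.1, other scalings and filters, a replicate block, other feature definitions and left-out libraries were alternatives. SE is the log2 fold change over the square root of F. The 7 shares and ratios had exact permutation tests (SciPy 1.17.1), which cannot go below 0.1 with 3 against 3. Sequences were compared with RefSeq (GRCm38.p6) and GENCODE M21 by sequence alone. Every member is accounted for, and those passing the filter, let-7 partners and features of like pattern are named by rule.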

Additional observations from a re-analysis of the deposited data

How the results depend on the processing

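No member passed under any of the 18 alternatives, while among all features DESeq2 called 20 and edgeR and each other alternative 0 (39 at an unadjusted p under 0.05 in edgeR). Joining names by sequence and mature-named features alone were chosen after seeing the data. miR-125b-5p and miR-99b-5p kept a negative log2 fold change under all 18, with leave-one-out ranges of -2.82 to -0.55 and -2.37 to -0.53. The alternatives reuse the same 6 libraries, so they are not independent. Without SIX2_EV replicate 2, where both were listed at 0, they were -1.05 (SE 0.98) and -0.53 (SE 0.88). In that library 5 reads are worth 70.0 CPM, and 0 may stand for anything below that. Directions of the other tested members reversed. miR-10b-5p was at 0.10 with DESeq2, 0.11 with its size factors, 0.26 in replicates 1 and 2 and 0.19 with mature-named features (-0.21 to 0.20 leaving out 1 library). miR-10a-5p was at -1.32 with limma-voom, -1.44 with total counts, -1.01 with the authors' signal and -0.78 with the replicate block (-1.38 to 0.82, negative without SIX2_EV replicate 1 or control_EV replicate 1). miR-99a-5p and miR-100-5p were at -1.56 with total counts (-0.20 to 0.96, negative without SIX2_EV replicate 1, control_EV replicate 1 or control_EV replicate 2). The members' median was -0.68 with limma-voom and -1.56 with total counts (-0.79 to 0.50). Name group ratios were -1.43 (miR-10) and -1.57 (miR-99 and miR-100) with total counts, the latter -1.24 from names without suffix, which hold neither other group. The miR-10b-5p share differed by -4.58 to 7.05 points leaving out 1 library, the log2 ratio of miR-99b-5p to miR-125a-5p by -0.97 to 0.036, and the members' share of mature reads by -0.0853 to 0.337 (-0.0128 from names without suffix). Deviations of same-numbered libraries correlated at 0.209, 0.0669 and 0.673 for replicates 1, 2 and 3. The value for replicate 3 was the highest of any SIX2_EV and control_EV pair. Both replicate 3 libraries were also high in mir-1285 reads (7.94% and 7.48%), and what they share was not tested. SIX2_EV replicate 2 correlated better with control_EV replicate 1 (0.623), so not every library correlated best with its own number. The replicate block called 0 features and changed no member's call. The cause of the reversals was not tested. Beside miR-10b-5p and the miR-99a sequence, each member had at most 20 reads in any SIX2_EV library, which limits precision.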
